A study of Drosophila melanogaster with 11 samples.

Results

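The Idgf genes of Drosophila melanogaster, which encode the imaginal disc growth factors, were followed by their names: the 6 genes Idgf1 to Idgf6 were read in 11 Drop-seq libraries of larval wing discs, out of 16503 genes listed in the count matrices of all libraries together. Idgf6 was listed under CG5210. In Drop-seq, single cells are caught in droplets with barcoded beads, and the captured end of each transcript is tagged with a molecular identifier (UMI), which makes 1 UMI stand for 1 RNA molecule. Levels are given as CPM, the UMIs of a gene scaled to a total of 1000000 UMIs in a library and cell class. Since UMIs count 3' ends, they were not divided by transcript length.

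Imaginal disc growth factors are secreted proteins of the chitinase family (glycoside hydrolase family 18) that have lost chitinase activity. They are known to promote the growth of cultured imaginal disc cells together with insulin, and to protect the forming cuticle. The wing disc holds a columnar epithelium, a thin overlying sheet named the peripodial membrane, tracheal branches, and myoblasts that lie under the notum and give rise to the flight muscles.

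Discs came from wandering larvae of the last instar kept at 25 °C, and most of the pouch had been cut away, so that the notum and hinge were kept. All larvae carried the driver 1151-GAL4, which is active in the myoblasts. The 8 wild-type libraries were 4 of 1151-GAL4 alone (replicates 1 to 4) and 4 of 1151>mCherry-RNAi (replicates 5 to 8), a hairpin in attP2 against a gene that flies lack. The other 3 libraries were labelled 1151>Ama-RNAi (replicates 1, 4 and 5), with the hairpin HMS00297 in attP2 against Amalgam, a secreted adhesion protein. In their epithelium, which the driver does not target, Ama was at 65.7 to 88.4 CPM against 45.6 to 116 CPM in wild type. In their myoblasts it was at 160 to 366 CPM against 35.1 to 230 CPM, from 1 to 8 UMIs in 6 to 35 cells per library. With so few UMIs, a lowering of Ama by the hairpin was not tested here. The paper reports that Ama expression was lost in the remaining myoblasts, and that staining showed far fewer myoblasts. These 3 libraries are called the libraries labelled 1151>Ama-RNAi throughout.

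The libraries held 1335977 to 10548893 UMIs. Of all barcodes, 26085 had 200 to 2500 detected genes and were taken as cells, 22041 of them in wild type and 4044 in the libraries labelled 1151>Ama-RNAi. In wild type, 10110 cells were epithelium (at least 2 UMIs of Fas3, grh, ImpE1 and ImpE2 together), 5219 were myoblasts (at least 2 UMIs of Him, zfh1, twi and CG9650) and 104 were tracheal cells (at least 2 UMIs of trh and Cht5). Of the 104 tracheal cells, 89 also met the epithelial rule, and such cells were counted as tracheal only. The tracheal class held 3098 CPM of epithelial markers and 637 CPM of tracheal markers, so it was not a set apart from the epithelium. The libraries labelled 1151>Ama-RNAi had 6 to 35 myoblasts each, against 149 to 1945 in wild type, and no member was compared there in myoblasts. The epithelial markers summed to 5813 CPM in epithelium and 179 CPM in myoblasts of wild type, and the myoblast markers to 59.1 and 5685 CPM. Cells that met the myoblast rule and another rule, 2.59% of all wild-type cells, were in no class. Across libraries, 38 cells had a barcode that also occurred as a cell in another library.

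The files give symbols and no positions, so positions are taken from the Ensembl annotation of BDGP6, the build to which the authors aligned. Idgf1, Idgf2 and Idgf3 lie head to tail on the forward strand of chromosome arm 2L, with 536 bases between Idgf1 and Idgf2 and 398 bases between Idgf2 and Idgf3. Idgf1 (FBgn0020416) spans 2L:16445278-16446793, Idgf2 (FBgn0020415) spans 2L:16447330-16450508, and Idgf3 (FBgn0020414) spans 2L:16450907-16455194. Idgf4 (FBgn0026415) is on the reverse strand of the X chromosome at X:9927973-9930948. Idgf5 (FBgn0064237) at 2R:18393666-18395282 and Idgf6 (FBgn0013763) at 2R:16691022-16693751 are on the forward strand of 2R and not next to each other. Their longest annotated transcripts measure 1445 (Idgf1) to 3801 bases (Idgf3).

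Idgf4 was the member seen by far most often, Idgf6 followed, and the other 4 genes were near the limit of detection. Over all barcodes of the 11 libraries, the family had 2140 UMIs, of which Idgf4 had 1815 (84.8%) and Idgf6 had 221 (10.3%). Idgf3 had 56 UMIs, Idgf2 had 19, Idgf1 had 16 and Idgf5 had 13. Idgf3, Idgf4 and Idgf6 were listed in 11 of 11 libraries, Idgf1 in 6, Idgf2 in 7 and Idgf5 in 5. The files list a gene only where it had at least 1 UMI, so the remaining libraries had 0 UMIs of that gene. The 3 clustered genes were thus all low, whereas the member on the X chromosome was high.

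Over all cells, Idgf4 was at 41.0, 48.8, 53.2 and 41.0 CPM in 1151-GAL4 replicates 1 to 4. It was at 11.3, 69.4, 29.4 and 38.0 CPM in 1151>mCherry-RNAi replicates 5 to 8, and at 88.5, 21.5 and 41.9 CPM in the libraries labelled 1151>Ama-RNAi. The 3 groups overlapped, and 1151>mCherry-RNAi replicate 5, with 7 Idgf4 UMIs in 697 cells, was the lowest library. Idgf6 was at 11.9, 27.9, 2.96 and 3.36 CPM in 1151-GAL4, at 1.62, 3.89, 3.98 and 3.16 CPM in 1151>mCherry-RNAi, and at 4.81, 4.30 and 8.03 CPM in the libraries labelled 1151>Ama-RNAi. For Idgf6, 1151-GAL4 replicates 1 and 2 thus stood above the other 9 libraries. In every library Idgf4 was the highest of the 6 genes.

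**Figure D1:**
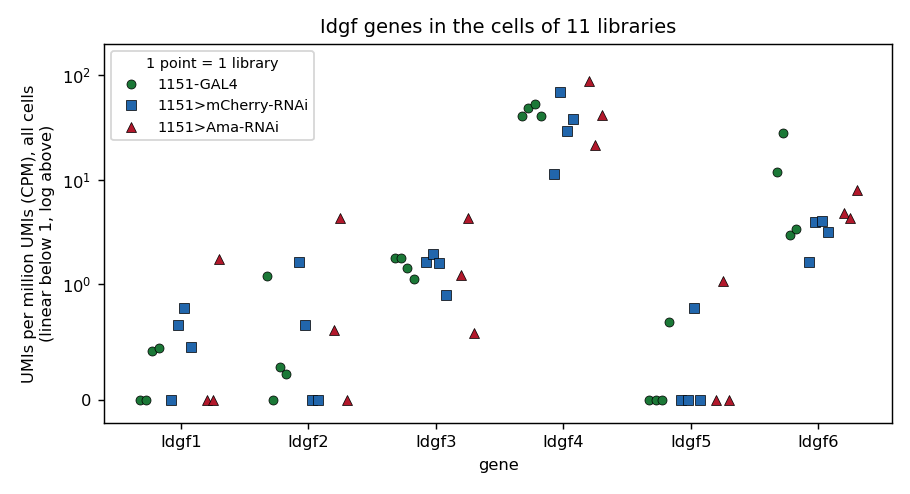
Level of each Idgf gene in all cells of each library, in CPM (linear below 1, logarithmic above). Each point is 1 library, coloured by group. Idgf4 lies between 11.3 and 88.5 CPM and Idgf6 between 1.62 and 27.9 CPM, and the other 4 genes stay at or under 4.30 CPM.

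In wild-type epithelium, Idgf4 was at 45.0, 25.4, 37.7 and 34.6 CPM in 1151-GAL4 and at 2.85, 57.4, 16.2 and 29.8 CPM in 1151>mCherry-RNAi, or 31.1 ± 16.9 CPM (SD, n = 8). In myoblasts it was at 5.28, 0, 5.25 and 22.8 CPM and at 17.6, 9.23, 20.8 and 0 CPM in the same libraries, or 10.1 ± 9.12 CPM (SD, n = 8). The ranges overlapped, and Idgf4 was lower in myoblasts than in epithelium of the same library in 6 of 8 libraries. The exceptions were 1151>mCherry-RNAi replicates 5 and 7.

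The fit across all genes put Idgf4 lower in myoblasts than in epithelium by a log2 fold change of -1.52 ± 0.28 (SE), with an adjusted p of 2.34e-05 (edgeR's quasi-likelihood test, library as a block, Benjamini-Hochberg). In this comparison 47.5% of 4682 genes tested were called (1069 higher and 1154 lower in myoblasts), and the call of 1 member is read against that share. Idgf4 was the only one of the 6 genes that passed the filter on low counts, in this and in every other comparison. The adjusted p was between 2.17e-06 and 0.00211 with 1 library left out (edgeR). The call was lost when cells that met both rules were kept in both classes, with a log2 fold change of -0.43 and an adjusted p of 0.115. Leaving out the richest Idgf4 cell of each library, an alternative chosen after seeing the data like the merging of barcodes 1 base apart, gave -1.12 ± 0.32 (SE), and without 1151-GAL4 replicate 4 Idgf4 fell under the filter and had no value. Cells whose barcodes differed at 1 base, when merged, gave -2.59 ± 0.28 (SE).

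Counted as cells with at least 1 UMI after every cell was thinned to 400 UMIs, Idgf4 was detected in 0.307 ± 0.327% of myoblasts and 0.773 ± 0.480% of epithelial cells (SD, n = 8). This difference did not pass the exact sign-flip permutation test over libraries (two-sided p = 0.0781, lower in myoblasts in 6 of 8). The p fell to 0.0313 without 1151>mCherry-RNAi replicate 7 and to 0.0469 without replicate 5. Before thinning, 1.80% of all wild-type cells had an Idgf4 UMI.

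Free RNA gives UMIs of a gene in cells that do not make it, and Idgf4 was present in it. In barcodes with fewer than 100 genes, Idgf4 was at 13.6, 49.0, 22.5 and 5.39 CPM in 1151>mCherry-RNAi replicates 5 to 8, and at 20.3, 55.3 and 17.3 CPM in the libraries labelled 1151>Ama-RNAi. Over the same 4 control libraries together, the background held 23.5 CPM (37 UMIs, exact Poisson 95% interval 16.5 to 32.4), epithelium 30.7 CPM and myoblasts 9.60 CPM. The epithelial level was above the background in 2 of these 4 libraries and in 4 of all 7, so that the level over all epithelium was not separated from free RNA. The myoblast level was under the background in 3 of these 4 libraries, all but replicate 5, and the pooled intervals overlapped (4.15 to 18.9 CPM in myoblasts). The 1151-GAL4 libraries held too few such barcodes for a value.

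Idgf4 stood highest in a small set of cells that also had RNA of Obp56a, and was above the other epithelium in cells with Ance. Ance encodes a secreted peptidase related to angiotensin-converting enzyme, and Obp56a an odorant-binding protein. The study named peripodial cells of the wild-type libraries by Idgf4 and Ance together, and Obp56a was found beside Idgf4 in an earlier look at the same libraries, so the wild-type values here are a description with no p. The study also used Ance to place other cells in the anterior medial notum. Ance-positive cells had at least 1 Ance UMI, Obp56a-positive cells at least 1 Obp56a UMI, and neither met the myoblast or tracheal rule. No epithelial marker was asked of them. The other epithelium met the epithelial rule and had no UMI of either gene. In wild type, 456 cells with Ance or Obp56a met no rule and held 235 Idgf4 UMIs. The comparisons thus differ in the epithelial rule too, and its part in the fold changes was not tested.

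In wild-type Ance-positive cells, Idgf4 was at 89.3, 150, 120 and 81.6 CPM in 1151-GAL4 and at 56.6, 255, 21.5 and 69.4 CPM in 1151>mCherry-RNAi. In the other epithelium it was at 33.2, 14.1, 12.4 and 32.8 CPM and at 3.11, 25.5, 17.3 and 24.7 CPM. The Ance-positive cells were higher in every one of the 8 libraries, by a log2 fold change of 2.24 ± 0.16 (SE), and 1151>mCherry-RNAi replicate 7 had the smallest gap. Replicate 5 had 35 Ance-positive cells and 7 Idgf4 UMIs over all its cells, so its gap rests on few UMIs. With 1 library left out the change was 1.95 to 2.65, and it thus moved with the libraries by more than the SE. In this comparison, 14.8% of 4191 genes were called. The epithelial markers were at 4730 CPM in Ance-positive cells and 5987 CPM in the other epithelium, and the median cell had 551 to 1704 UMIs against 551 to 1244 in all epithelium.

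Both choices rested on the wild-type libraries, and Idgf4 was tested in the libraries labelled 1151>Ama-RNAi. The classes were set for all 11 libraries with earlier results of these data known, so this was not a fully separate test. Idgf4 was at 247, 78.4 and 30.0 CPM in the Ance-positive cells of the labelled libraries (replicates 1, 4 and 5) and at 13.4, 8.27 and 15.0 CPM in their other epithelium. The groups did not overlap. The log2 fold change was 3.16 ± 0.30 (SE), higher in 3 of 3 libraries, with an adjusted p of 1.19e-23 (edgeR's quasi-likelihood test, library as a block, Benjamini-Hochberg), where 5.77% of 3673 genes were called. Without replicate 1 it was 1.89 ± 0.52 (SE), with an adjusted p of 0.0166 by the same test, the highest of the 3 values with 1 library left out. Without replicate 5 it was 3.97, so the change moved with the libraries by more than the SE of 0.30. DESeq2 gave no adjusted p for Idgf4 there. Of the Idgf4 UMIs in these Ance-positive cells, 45 were in 2 cells of 1 library that also had Obp56a, and 50 were in the other 459 cells. The fit included those 2 cells. With the cells that also had Obp56a left out, the Ance cells of these libraries held 71.4 CPM against 13.0 CPM in the other epithelium.

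Among Ance-positive cells, the level differed with the number of Ance UMIs, and part of this came with the Obp56a cells among them. In pooled wild type, cells with 1 Ance UMI held 32.1 CPM of Idgf4 (95% interval 23.2 to 43.2) and cells with 2 to 4 held 100.3 CPM (80.0 to 124). Cells with 5 or more held 205 CPM (179 to 234). The other epithelium held 23.1 CPM (20.4 to 26.0), where 86 of 271 UMIs were in 1 cell. The 3 steps were at 25.6, 77.2 and 214 CPM in 1151-GAL4, but at 56.1, 187 and 147 CPM in 1151>mCherry-RNAi, where the order did not hold.

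With cells that had Obp56a left out, an alternative chosen after seeing the data, the 3 steps were at 24.9, 52.5 and 171 CPM in 1151-GAL4 and at 53.3, 57.4 and 80.5 CPM in 1151>mCherry-RNAi, where the intervals of all 3 overlapped. In the libraries labelled 1151>Ama-RNAi, the steps were at 65.3, 103 and 332 CPM with the Obp56a cells and at 31.2, 103 and 109 CPM without them. The upper step of 332 CPM held 50 UMIs, of which 34 were in a single cell that also had Obp56a. These intervals are exact Poisson intervals of pooled UMIs and cover counting error only.

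Cells with Obp56a RNA were few and held far more Idgf4. In the 3 wild-type libraries with at least 10 of them, Idgf4 was at 1642 CPM (1151-GAL4 replicate 3, 25 cells), 734 CPM (1151-GAL4 replicate 4, 25 cells) and 2195 CPM (1151>mCherry-RNAi replicate 6, 22 cells). Against the other epithelium of the same libraries this was a log2 fold change of 5.87 ± 0.24 (SE), given with no p, where 2.38% of 3187 genes were called. The lowest of these 3 values was above the highest Ance-positive value of any library. Leaving out 1151-GAL4 replicate 3 or 4 gave 5.14 and 6.62.

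Of the 70 wild-type cells with 1 Obp56a UMI, 25.7% had Idgf4 (499 CPM), and of the 25 cells with 2 or more, 88.0% had it (3764 CPM, 95% interval 3190 to 4413). Cells with both Ance and Obp56a held 2240 CPM, cells with Obp56a and no Ance 911 CPM, and cells with Ance and no Obp56a 79.2 CPM. In the libraries labelled 1151>Ama-RNAi, these sets were at 8895 CPM (45 UMIs in 2 cells of 1 library), 3415 CPM (11 cells) and 71.4 CPM. Obp56a-positive cells numbered 5, 3 and 5 there, and Idgf4 in them was at 4823, 749 and 4721 CPM. With fewer than 10 cells per library, the fit was not run there.

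**Figure D2:**
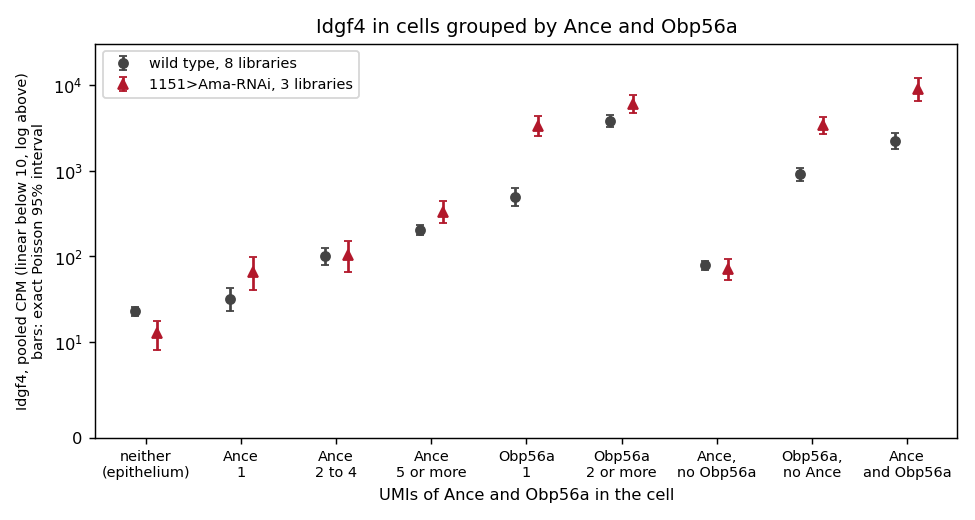
Idgf4 in cells grouped by their UMIs of Ance and Obp56a, pooled over the 8 wild-type libraries (circles) and the 3 libraries labelled 1151>Ama-RNAi (triangles). The vertical axis is CPM (linear below 10, logarithmic above) and the bars are exact Poisson 95% intervals, which cover counting error only. The wild-type points go from 23.1 CPM in epithelium with neither gene to 3764 CPM in cells with 2 or more Obp56a UMIs.

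Antp, a Hox gene, and drm, a zinc finger gene of the odd-skipped family, are further peripodial markers, and a split by them was chosen after seeing the data. In wild type, cells with drm held 234 CPM of Idgf4 and cells with Antp 73.9 CPM. The 184 cells with both genes and no UMI of Ance or Obp56a held 362 CPM (95% interval 307 to 425). In this last set, 86 of 151 UMIs were in 1 cell of 1151-GAL4, which the interval does not cover. That cell was also in the drm set (356 UMIs) and the Antp set (295 UMIs). In the libraries labelled 1151>Ama-RNAi, the same 3 sets were at 397, 26.6 and 10.9 CPM, the last from 1 UMI in 39 cells (95% interval 0.275 to 60.5). The drm value there came from 126 UMIs in 10 of 157 cells, and 43 of these UMIs were in 1 cell that also had Obp56a. Cells with Ance or Obp56a were not left out of the drm set, so its level is not separate from theirs.

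**Figure D3:**
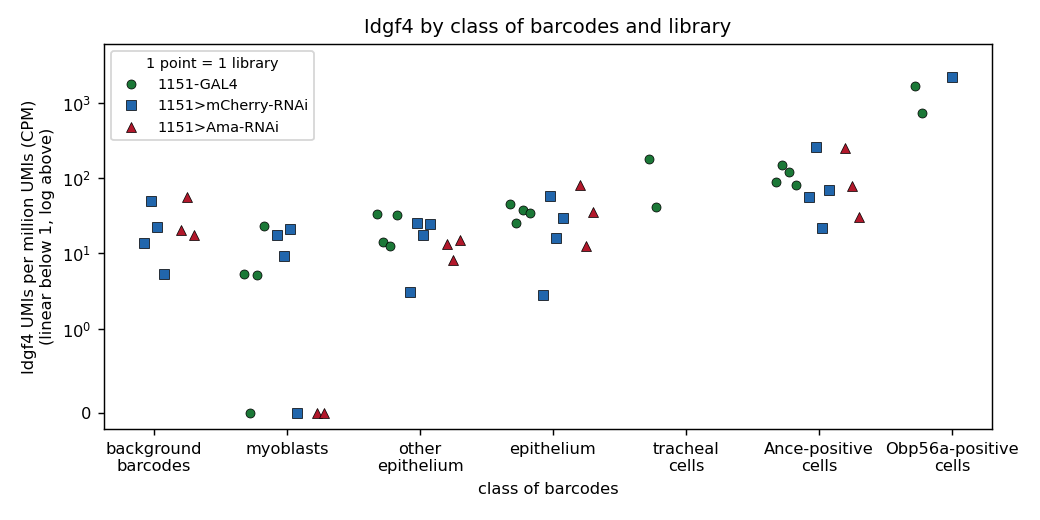
Idgf4 in each class of barcodes, in CPM (linear below 1, logarithmic above). Each point is 1 library with at least 10 barcodes and 10000 UMIs of that class, coloured by group. Obp56a-positive cells lie between 734 and 2195 CPM, Ance-positive cells between 21.5 and 255 CPM, and myoblasts and background barcodes mostly overlap the other epithelium.

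Tracheal cells numbered at least 10 in 1151-GAL4 replicates 3 and 4 only. There, 29 of 34 and 35 of 41 of them also met the epithelial rule. Idgf4 was at 179 CPM (26 UMIs in 34 cells, of which 8 had it) and 40.7 CPM (8 UMIs in 41 cells, of which 2 had it), against 37.7 and 34.6 CPM in the epithelium of these libraries. The fit gave a log2 fold change of 1.37 ± 0.38 (SE) with an adjusted p of 0.0117 (edgeR's quasi-likelihood test, Benjamini-Hochberg), where 3.19% of 6962 genes were called. The gap was thus carried by replicate 3. DESeq2 gave an adjusted p of 0.847, edgeR without the library block 0.201, with cells of both rules kept in both classes 0.0688, and with barcodes 1 base apart merged 0.223. In the other 6 wild-type libraries, 29 tracheal cells held 3 UMIs in all.

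By mean level the order of the wild-type classes was Obp56a-positive cells (1524 ± 738 CPM, SD, n = 3), tracheal cells (109.9 ± 97.9 CPM, SD, n = 2), Ance-positive cells (106 ± 71.9 CPM, SD, n = 8), epithelium (31.1 CPM), background (22.6 ± 18.9 CPM, SD, n = 4), other epithelium (20.4 ± 10.5 CPM, SD, n = 8) and myoblasts (10.1 CPM). The libraries of the last 4 overlapped each other, and Ance-positive cells overlapped epithelium through 1151>mCherry-RNAi replicates 5 and 7. The tracheal values of 179 and 40.7 CPM lay within the range of the Ance-positive cells.

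A large part of the Idgf4 RNA was in few cells. In wild type, 396 cells had an Idgf4 UMI, and 262 of them had 1. A limit of 5 UMIs was set after seeing the data, and 51 cells (0.231%) reached it and held 649 of 1129 UMIs (57.5%). This share was 62.1% in 1151-GAL4 and 40.0% in 1151>mCherry-RNAi, and it was above 50% in 4 of 8 libraries, from 0% in 1151>mCherry-RNAi replicate 5 to 65.8% in 1151-GAL4 replicate 4. Of these 51, 41 (80.4%) had a UMI of Ance or Obp56a, which 9.07% of all cells had. They were deeper than other cells, with a median of 2415 UMIs against 700. The richest held 86 UMIs (1151-GAL4 replicate 4) and 82 UMIs (1151-GAL4 replicate 3). In the libraries labelled 1151>Ama-RNAi, 10 cells reached the limit, 8 of them with Ance or Obp56a, and the richest held 43 UMIs.

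The share of cells with Ance or Obp56a was higher among cells with 5 or more Idgf4 UMIs. It was 29.4% of cells with 1 Idgf4 UMI, 37.0% with 2, 43.2% with 3 to 4, 72.4% with 5 to 9, 94.1% of the 17 cells with 10 to 19, and 80.0% of the 5 cells with 20 or more. Deeper cells have more UMIs of every gene, and the part of depth in these shares was not tested.

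**Figure D4:**
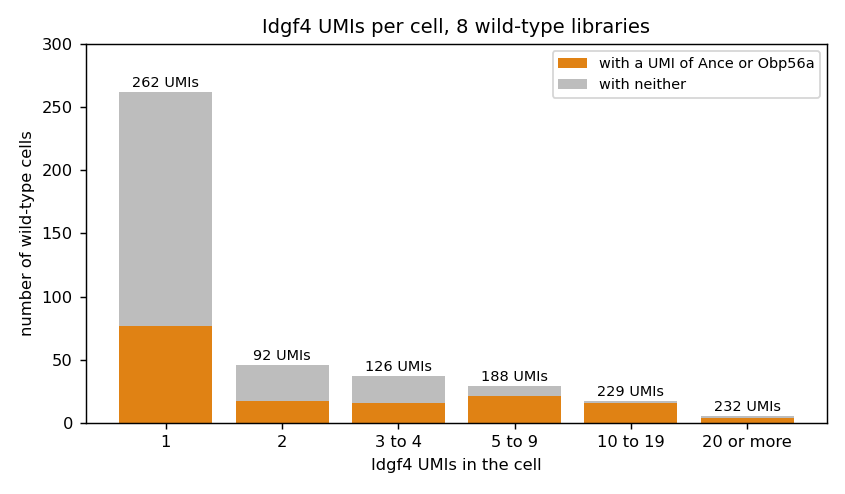
Number of wild-type cells by their Idgf4 UMIs, pooled over 8 libraries. The orange part of a bar counts cells with a UMI of Ance or Obp56a and the grey part cells with neither, and the text over each bar gives the Idgf4 UMIs these cells hold. The 262 cells with 1 UMI are mostly grey, and the 22 cells with 10 or more are mostly orange.

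Of the 51 rich cells, 20 were epithelium by the marker rule, 3 were tracheal, 2 were myoblasts and 4 met both the epithelial and the myoblast rule. Among all 22041 wild-type cells, 13658 had no UMI of a myoblast marker. Of the 51 rich cells, 39 had no UMI of a myoblast marker and 16 had none of an epithelial marker. Their epithelial markers summed to 1804 CPM, under the 5987 CPM of the other epithelium. The list of Ance, Obp56a, drm and Antp summed to 2829 CPM against 605 CPM in all epithelium. Ance and Obp56a had been tied to Idgf4 in these same libraries, so this sum is a description and no separate sign of peripodial identity. Against the other epithelium, myoblast markers were at 265 and 63.2 CPM, larval muscle genes at 90.5 (0 to 633 across libraries, with up and Tm2 at 0 UMIs) and 22.0 CPM, tracheal markers at 109 and 25.2 CPM, and genes of neurons and glia at 90.5 and 100.1 CPM. Their part in the Idgf4 level was not tested. The haemocyte list of 8 genes held 84.5 CPM (0 to 317 across libraries) against 68.8 CPM, with Hml, Pxn, NimC1, eater and He at 0 UMIs. Its UMIs were of srp, crq and Ppn. Of the 7 fat body genes only 1 was seen, with 1 UMI. That was 6.03 CPM against 9.02 CPM in the other epithelium, too few UMIs to tell them apart. Haemocytes and fat body are known to make Idgf RNA in larvae, and their part in the Idgf4 level was not tested.

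By class, 45.6% of the 1129 wild-type Idgf4 UMIs were in epithelium, which made up 45.9% of cells. Cells that met no rule and had Ance or Obp56a were 2.07% of cells and held 20.8% of the UMIs (710 CPM). Cells of the myoblast rule and another rule, which the classes leave out, held 11.2% (105 CPM; 125 of their 127 UMIs were in 1151-GAL4, and the 2 others were 6.83 CPM in 1151>mCherry-RNAi), myoblasts 5.67%, tracheal cells 3.28%, and cells with no rule and neither gene 13.4%. The epithelial rule therefore missed many of the cells with most Idgf4.

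Within libraries, the genes whose values went most with Idgf4 over single cells were Cpr49Ac, a cuticle protein gene, with a mean correlation of 0.397 (0.145 to 0.617 over the 8 wild-type libraries), and Obp56a with 0.321 (0.125 to 0.596). CG9932 followed with 0.208, Spn47C, a serpin gene, with 0.196, and Mp, the collagen gene Multiplexin, with 0.166. The points share library and depth, and these values are a description over 22041 cells. For Idgf6, no gene reached the limit of 0.1 that was set for naming.

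Idgf6 was low, and was highest in 1151-GAL4 replicates 1 and 2. In epithelium it was at 16.4, 27.6, 4.40 and 3.63 CPM in 1151-GAL4 and at 2.85, 3.67, 5.39 and 2.08 CPM in 1151>mCherry-RNAi, or 8.24 ± 9.03 CPM (SD, n = 8), and in myoblasts at 3.02 ± 2.88 CPM (SD, n = 8). In the thinned cells it was detected in 0.253% of epithelial cells and 0.105% of myoblasts on average (exact permutation test, two-sided p = 0.0781, lower in myoblasts in 6 of 8). The difference of Idgf6 between these classes was therefore not larger than the spread between libraries by this test. In a fit with no filter on low counts it was -1.47 ± 0.42 (SE) on the log2 scale, with an adjusted p of 0.00353 (edgeR's quasi-likelihood test, Benjamini-Hochberg), from 91 and 11 UMIs.

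In wild-type Ance-positive cells, Idgf6 was at 22.3, 52.2, 11.4 and 9.16 CPM in 1151-GAL4 and at 0, 5.20, 14.3 and 16.3 CPM in 1151>mCherry-RNAi. The other epithelium held 15.2, 18.8, 2.66 and 3.09 CPM and 3.11, 3.19, 3.15 and 0.822 CPM. Idgf6 was higher in the Ance-positive cells in 7 of 8 libraries, all but 1151>mCherry-RNAi replicate 5, and the ranges overlapped. With no filter on low counts the log2 fold change was 1.54 ± 0.30 (SE), with an adjusted p of 3.32e-05 (edgeR's quasi-likelihood test, Benjamini-Hochberg). In the libraries labelled 1151>Ama-RNAi, Idgf6 was at 6.42, 0 and 7.51 CPM in Ance-positive cells and 3.82, 3.31 and 6.67 CPM in the other epithelium, and the same fit gave 0.14 ± 1.04 (SE) with an adjusted p of 0.977, from 4 UMIs in the Ance-positive cells.

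Unlike Idgf4, Idgf6 was not seen in Obp56a-positive wild-type cells: it had 0 UMIs in 184686, which allows up to 16.2 CPM and so does not exclude the epithelial level. It was never above 3 UMIs in a cell, and 106 of its 121 wild-type cells had 1. In pooled wild type, cells with 1, 2 to 4 and 5 or more Ance UMIs held 5.97, 20.3 and 24.0 CPM of Idgf6, from 8, 17 and 26 UMIs. In 1151>mCherry-RNAi the steps were at 3.51, 22.6 and 13.3 CPM, from 1, 4 and 2 UMIs, and the order did not hold. Free RNA of the 4 control libraries held 2.54 CPM of Idgf6 against 3.28 CPM in their epithelium, and these were not separated.

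**Figure D5:**
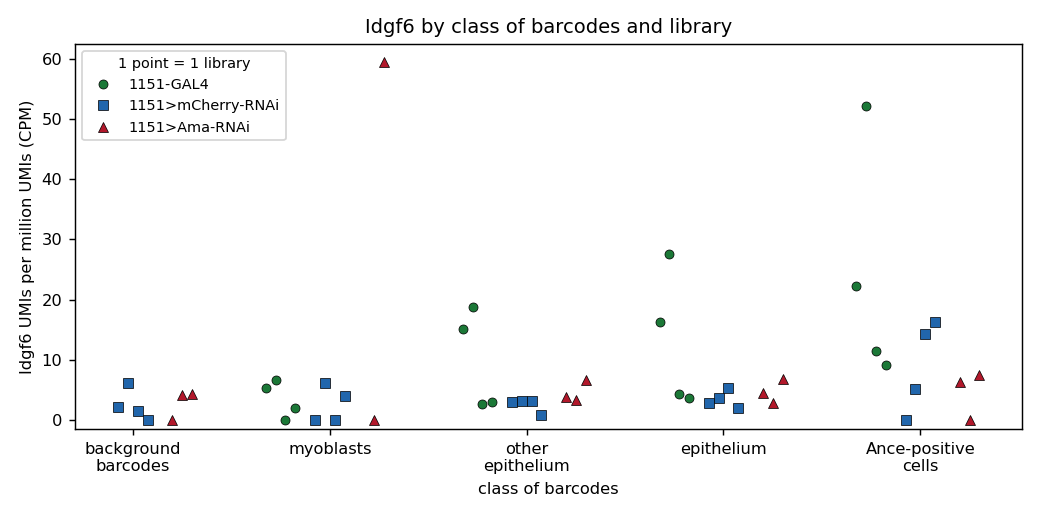
Idgf6 in 5 classes of barcodes, in CPM on a linear axis. Each point is 1 library with at least 10 barcodes and 10000 UMIs of that class, coloured by group. 1151-GAL4 replicates 1 and 2 are the upper points of both epithelial classes and of Ance-positive cells, up to 52.2 CPM, and the point at 59.5 CPM in myoblasts rests on 2 UMIs of a library labelled 1151>Ama-RNAi.

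Idgf1, Idgf2, Idgf3 and Idgf5 gave no call in any fit, filtered or not. Over all wild-type cells Idgf3 was at 1.52 ± 0.36 CPM (SD, n = 8), from 34 UMIs in 34 cells, with 1 to 10 UMIs per library, and in the libraries labelled 1151>Ama-RNAi it was at 0.574 to 4.30 CPM. It was at 1.48 CPM in epithelium (95% interval 0.930 to 2.25) and 1.58 CPM in myoblasts (0.683 to 3.12), which were not distinguishable at this depth. Idgf2 had 6 UMIs in wild-type epithelium and 0 in 5054444 UMIs of myoblasts, which allows up to 0.594 CPM, while epithelium held 0.405 CPM. Its detection was lower in myoblasts in 5 of 8 libraries and tied at 0 in the others (exact permutation test, two-sided p = 0.0625, the smallest this test can give with 5 libraries that differ). Idgf1 had 3 UMIs in each of these classes, and Idgf5 had 1 in epithelium and 3 in myoblasts. In wild type, none of the 4 had a UMI in tracheal or Obp56a-positive cells.

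Members were rarely seen in the same cell. In all cells before thinning, Idgf4 and Idgf6 shared 22 cells, where 2.85 would be shared if the genes were independent within each library, and after thinning to 400 UMIs the numbers were 1.51 and 0.396. Idgf2 and Idgf4 shared 3 cells, Idgf3 and Idgf4 shared 2, Idgf3 and Idgf6 shared 1, and no other pair of members shared any. Idgf4 shared 141 cells with Ance (43.1 if independent) and 57 cells with Obp56a (2.58 if independent), and after thinning 41.4 against 11.8 and 23.9 against 0.533. Idgf6 shared 48 cells with Ance (13.8 if independent) and 2 with Obp56a (0.640 if independent).

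Between the libraries labelled 1151>Ama-RNAi and wild type, no member was called in epithelium. Idgf4 was at 79.9, 12.6 and 35.9 CPM in the former, a mean of 42.8 ± 34.2 CPM (SD, n = 3) against 31.1 ± 16.9 CPM (SD, n = 8). The groups overlapped, with a log2 fold change of 0.50 ± 0.41 (SE) and an adjusted p of 0.9997 (edgeR's quasi-likelihood test, Benjamini-Hochberg), where 0.052% of 5770 genes were called. Without replicate 1 of the labelled libraries the log2 fold change was -0.36, and without the richest Idgf4 cell of each library it was 0.03. Cells with 5 or more Idgf4 UMIs made up 0.247% of cells in the labelled libraries and 0.231% in wild type.

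Between the wild-type lines, Idgf4 was not called in epithelium either: it was at 25.4 to 45.0 CPM in 1151-GAL4 and 2.85 to 57.4 CPM in 1151>mCherry-RNAi, with a log2 fold change of -0.26 ± 0.34 (SE) and an adjusted p of 0.668 (edgeR's quasi-likelihood test, Benjamini-Hochberg), where 10.1% of 5242 genes were called. For Idgf6, the fit with no filter gave -1.51 ± 0.51 (SE), with an adjusted p of 0.0637. The median cell had more UMIs in each 1151-GAL4 library (703 to 825) than in any 1151>mCherry-RNAi library (503 to 653), so that the line and the depth per cell cannot be told apart. The totals per library overlapped between the lines.

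Relatives and partners of the family were described with lists of 10 chitinases of the same family, 8 genes of the chitin matrix and 13 genes of the insulin pathway. In myoblasts against epithelium, 4 of 4 chitinases tested were lower, with a median log2 fold change of -2.82 against 0.00 over all genes, and Cht10 had the largest drop (-3.73). The Idgf4 change of -1.52 was smaller than this median. Of 6 matrix genes tested, 5 were lower (median -3.54), the largest being verm (-4.32), which encodes a chitin deacetylase. Of 12 insulin pathway genes, 2 were higher, led by Ilp6 (3.72), an insulin-like peptide, and 3 were lower, led by Sdr (-2.71), a secreted decoy of the insulin receptor, with a median of -0.01. The share of insulin pathway genes called, 5 of 12, was near the 47.5% called over all genes.

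In wild-type Ance-positive cells, 1 of 4 chitinases was higher (Cht10, 0.35), 2 of 7 matrix genes were higher, led by serp (0.88), another chitin deacetylase, and 1 of 8 insulin genes was higher (ImpL2, 0.55), a secreted binder of insulin-like peptides. The medians of the 3 lists were 0.13, 0.25 and -0.07 against -0.02 over all genes, of which 14.8% were called, so that 1 of 4 and 1 of 8 are near the background. In the Ance-positive cells of the libraries labelled 1151>Ama-RNAi, 0 of 3 chitinases, 2 of 7 matrix genes, led by serp (0.82), and 0 of 7 insulin genes were called. Over all genes tested in that comparison, 5.77% were called. In Obp56a-positive cells, 2 of 7 matrix genes were higher, led by Gasp (2.27), a chitin-binding protein, with none called of 3 chitinases and 6 insulin genes. The share called over all genes was 2.38% there. The Idgf4 change of 5.87 in Obp56a-positive cells stood above that of each listed gene tested. Obp56a had been found beside Idgf4 in these same libraries, so the choice of cells favoured this rank, which is a description only.

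In tracheal cells, 1 of 4 chitinases tested (Cht6, 1.33), 1 of 8 matrix genes (serp, 1.33) and 0 of 12 insulin genes were called, all in the higher direction. Over all genes tested there, 3.19% were called. None of the 5 chitinases, 8 matrix genes and 11 insulin genes tested was called between the libraries labelled 1151>Ama-RNAi and wild type, and between the wild-type lines only Akt1 (0.73, higher in 1151>mCherry-RNAi) was called of 4, 8 and 11. The shares called over all genes in these 2 comparisons were 0.052% and 10.1%.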

How the data were processed

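Single-cell RNA was measured by Drop-seq in 11 libraries. For each, the authors deposited raw UMI counts per gene and barcode with no normalization. The submitters' processing notes name STAR, FastQC and BDGP6, and the study's methods name the Drop-seq tools for counting. Barcodes with fewer than 200 genes were present, and served as background under 100 genes. Cells with 200 to 2500 genes were classed by marker UMIs, without clustering and without a doublet caller. UMIs were summed per library and class, and libraries with fewer than 10 cells of a class were left out of fits.

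Sums were tested in R 4.3.3 with edgeR 4.0.16 (TMM, filterByExpr, glmQLFit, glmQLFTest), with the library as a block between classes of the same libraries and Benjamini-Hochberg adjustment over all genes tested. Calls were made at adjusted p-values under 0.05. Shares of cells were compared after thinning every cell to 400 UMIs, leaving out 1215 epithelial cells and 559 myoblasts of wild type that were shallower, by exact sign-flip permutation tests. Python 3.11.15 with numpy 2.4.6, scipy 1.17.1 and matplotlib 3.10.9 was used for the rest. Intervals are exact Poisson intervals at 95%, a count of 0 was read as up to 3 counts, and both cover counting error only. Fits were tested on simulated data.

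Alternatives were DESeq2 1.42.0, no filter on low counts, limits of 10% mitochondrial, 6% heat shock and 1.5% 28S rRNA UMIs, 3 marker UMIs, cells of 2 rules in both classes, no library block, 2 UMIs for a positive cell, other controls, thinning to 200 UMIs, background under 50 genes, and each library left out. All 6 members were named, and for each with a UMI in at least 100 wild-type cells, the 5 genes of highest mean correlation within libraries, if at least 0.1 and seen in at least 50 cells. Of the lists, the genes called with the largest change were named. The members and lists were chosen with earlier results of these data known. The labels do not say that replicates were separate cultures or animals, so p-values refer to these libraries only. Those of edgeR rest on a spread estimated partly from all genes tested, not on the spread of 1 member alone. No sequences of the genes were used here.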

Additional observations from a re-analysis of the deposited data

Results flagged for a closer look

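Among 18 sets of 4 libraries examined, 1 held a library far from the others: Idgf6 in the other epithelium of 1151>mCherry-RNAi replicate 8 was at 0.822 CPM, where replicates 5 to 7 were at 3.11, 3.19 and 3.15 CPM. Chance gives such a library in about 1 of 20 sets. The 0.822 CPM is a single UMI.

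Barcodes with more than 2500 genes were in no comparison. The 147 of them in wild type held 315 Idgf4 UMIs, or 93.3 CPM (exact Poisson 95% interval 83.3 to 104), above the 31.1 CPM of epithelium. Of these UMIs, 228 came from the 20 barcodes of 1151>mCherry-RNAi (562 CPM), 224 of them in replicate 6, and the 127 barcodes of 1151-GAL4 held 29.3 CPM. The libraries labelled 1151>Ama-RNAi had 15 such barcodes, with 1 Idgf4 UMI (3.02 CPM). The source of these barcodes was not tested.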

How the results depend on the processing

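Of 210 alternative values, 164 kept their direction and side of the threshold, or stayed near the value. With no library block, 1246 genes were called in myoblasts, 78 in tracheal cells, 46 in Ance-positive cells, 29 in those of the libraries labelled 1151>Ama-RNAi and 20 in Obp56a-positive cells. DESeq2 called 60, 395, 52 and 49 in the last 4 of these. With no filter on low counts the calls were 138 in Ance-positive cells of the libraries labelled 1151>Ama-RNAi, 384 in Obp56a-positive cells and 19 between those libraries and wild-type epithelium, and with only 1151>mCherry-RNAi controls 9. Merging barcodes 1 base apart, chosen after seeing the data, removed 1998 cells (7.66%) and left 118 calls in tracheal cells and 133 in Ance-positive cells of the libraries labelled 1151>Ama-RNAi. Leaving out 1 library gave 362 to 631 calls in Ance-positive cells, 50 to 144 in those labelled 1151>Ama-RNAi, 31 to 109 in Obp56a-positive cells, 1 to 6 between these libraries and wild type, and 126 to 881 between the wild-type lines. The causes were not tested.

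For Idgf4 on the log2 scale, the myoblast change was -0.43 with cells of both rules kept. The tracheal change was 1.30 by DESeq2, 1.41 with no block, 0.96 with cells of both rules and 1.31 with merged barcodes, each with an adjusted p above 0.05. The Ance change was 2.84 with 2 UMIs for a positive cell, and the Obp56a change was 5.31 with no filter, 6.37 without the richest cell and 5.14 to 6.62 with 1 library left out. Against wild type, Idgf4 reversed to -0.36 without 1151>Ama-RNAi replicate 1 (range -0.36 to 0.89). The thinned detection differences went from -0.630 to -0.354 percentage points for Idgf4 and from -0.182 to -0.0845 for Idgf6 with 1 library left out. The ratio of cells sharing Idgf4 and Obp56a to independence was 44.7 at 400 UMIs and 66.9 at 200.

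Replicate numbers shared by the labelled groups did not pair the libraries (correlations of 0.155, -0.066 and -0.124 between same-numbered libraries). With a replicate block, 8 genes were called against 3, and Idgf4 was at 0.39 with an adjusted p of 0.938 (edgeR). No value could be had with 2 Obp56a UMIs for a positive cell, for Obp56a in the libraries labelled 1151>Ama-RNAi, and for tracheal cells with 1 library left out. At these depths, Idgf1, Idgf2, Idgf3 and Idgf5, with 56 UMIs at most, gave few UMIs per class, and their levels in classes are imprecise.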
